A study of Mus musculus with 24 samples.

Results

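Chemokine ligands are the small secreted proteins that direct the movement of leukocytes, and this family was described across 9 groups of sorted cells from mouse gonadal fat. Its members were the genes whose symbol begins with Ccl, Cxcl, Cx3cl or Xcl and a number, taken from probe sets annotated to exactly 1 gene symbol. For a gene with several such probe sets the one with the highest mean over all 24 arrays was used. There were 34 such genes among the 22180 genes measured: 19 Ccl genes, 13 Cxcl genes, Cx3cl1 and Xcl1. Of these, 30 were tested among 15496 genes, because they lay above the array's own median on at least 2 arrays. Ccl1, Ccl26, Cxcl5 and Cxcl15 were not tested and lay above the median on at most 1 array. A further 33 probe sets that list Ccl19, Ccl21 or Ccl27 beside other symbols could not be given to 1 gene and were not members.

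The cells came from male C57Bl/6 mice on a normal diet (ND), on a high-fat diet with 60% fat (HFD), or in a weight loss (WL) group that ate the HFD for 12 weeks and was then kept off it for 8 weeks. Live stromal cells were sorted into adipose tissue macrophages (ATM) without or with the integrin CD11c, dendritic cells of the same tissue (ATDC), and preadipocytes (PA), from which fat cells arise. There were 2 arrays of ND CD11c- ATM, 3 of HFD CD11c- ATM and 2 of WL CD11c- ATM, and 3 each of HFD and WL CD11c+ ATM. ATDC were measured on 2 ND and 3 HFD arrays, and PA on 3 ND and 3 HFD arrays. CD11c+ ATM of ND mice were too few to purify, and there were no WL ATDC or WL PA. The ND macrophage and dendritic cell samples were pools of cells from 4 mice, the HFD samples and all PA samples pools of 3 to 4 mice, and the pooling of WL samples is not stated in the labels. P-values therefore measure the spread between such pools.

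CC chemokines such as Ccl2, Ccl7, Ccl8 and Ccl12 attract monocytes, and Ccl3, Ccl4 and Ccl5 attract monocytes and T cells. Cxcl1 and Cxcl2 attract neutrophils through the receptor Cxcr2, and the interferon-induced Cxcl9, Cxcl10 and Cxcl11 attract T cells through Cxcr3. Others are made by dendritic cells (Ccl17 and Ccl22, ligands of Ccr4) or by connective tissue cells (Cxcl12, ligand of Cxcr4). In fat, Ccl2 is best known as the signal that brings monocytes into the tissue in obesity.

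Values are the deposited normalized log2 values, on which 1 unit is a 2-fold difference, and levels are compared only within a gene. Differences are given as the estimate ± standard error (SE) of 1 limma fit over all 24 arrays, with the Benjamini-Hochberg adjusted p over all tested genes and a threshold of 0.05. The arrays carried the markers of their labels: the median of 9 macrophage markers was 9.62 to 10.65 on the ATM arrays, that of 7 dendritic cell markers was 7.86 to 8.57 on the ATDC arrays against 2.77 to 4.59 elsewhere, and that of 8 preadipocyte and fibroblast markers was 10.53 to 10.80 on the PA arrays. Markers of other cells were present too. The median of 4 mast cell markers was 7.39 and 8.74 on the WL CD11c- ATM arrays and at most 5.12 elsewhere. The macrophage list reached 8.15 to 9.62 on ATDC arrays and 4.20 to 8.12 on PA arrays, and the preadipocyte list spanned 5.44 to 9.69 on ATM arrays. For their markers of other cells 3 arrays were singled out after their values were seen. ND PA replicate 1 had the highest macrophage list of its group. Its Ccl17, a member of the family described here, was 6.73 against 2.44 and 2.16 on the other ND PA arrays. HFD CD11c- ATM replicate 3 had the highest preadipocyte list of its group, and HFD ATDC replicate 1 the highest NK cell list of its group. The WL CD11c- ATM arrays were not among the 3. WL arrays correlated less with their own group over all genes (mean r of 0.88 to 0.92) than the other arrays did (0.94 to 0.98), and the lowest of all 24 was WL CD11c+ ATM replicate 1. Because sorted pools were measured in bulk, fewer cells of a type and less RNA per cell cannot be told apart.

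Of the 34 members, 12 lay above the median on all 24 arrays, and 20 passed the threshold in at least 1 of 12 comparisons. The other 10 tested genes, Ccl2, Ccl7, Ccl20, Ccl25, Ccl28, Cx3cl1, Cxcl3, Cxcl10, Cxcl11 and Cxcl17, passed it in none. The differences between cell types were the most numerous, as the map of all tested members shows.

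**Figure D1:**
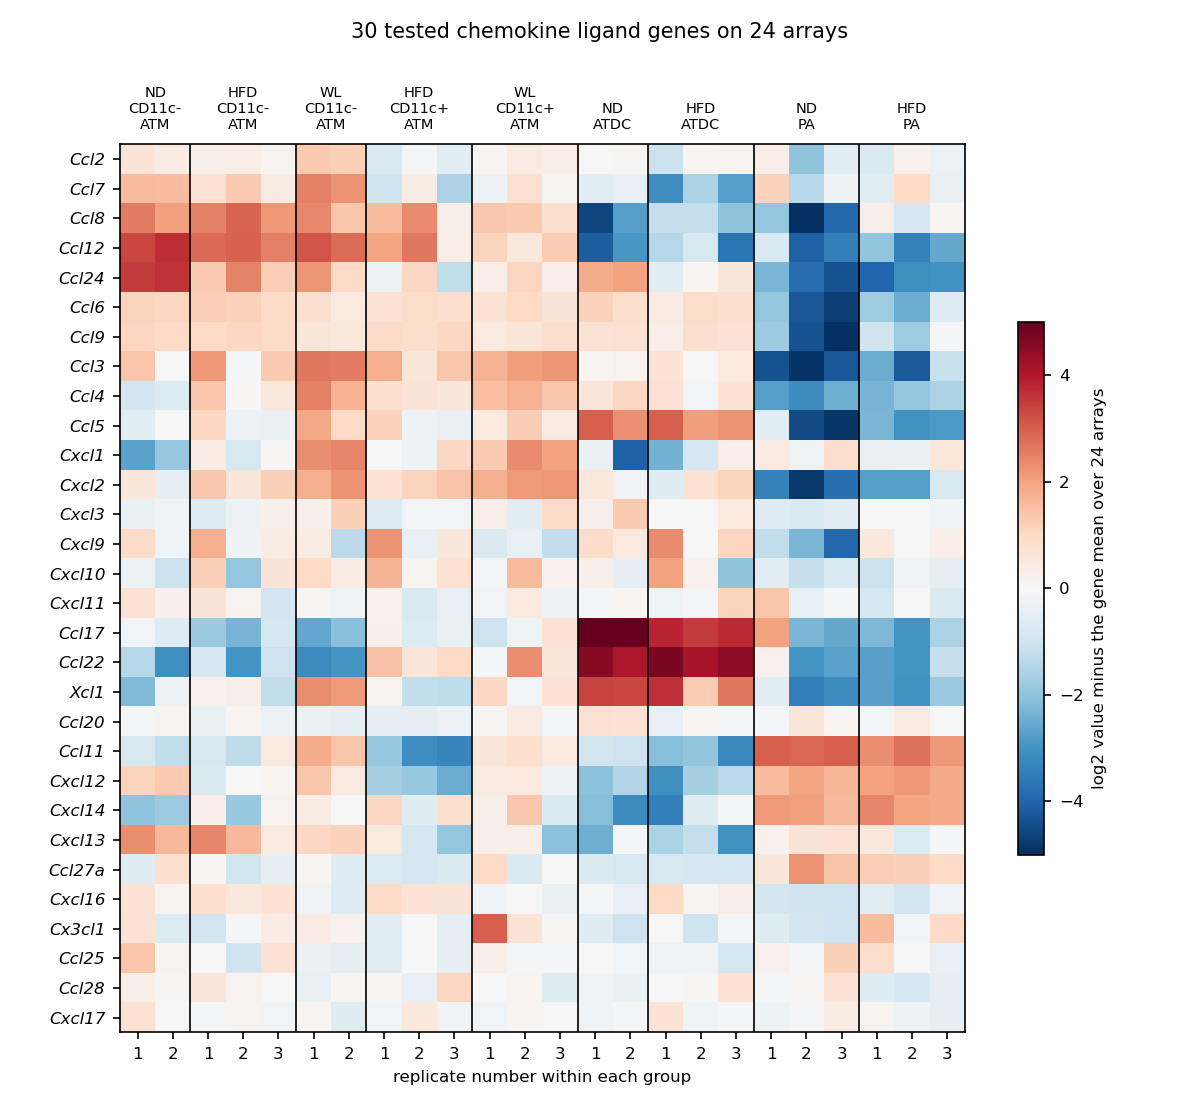
The 30 tested chemokine ligand genes (vertical axis) on 24 arrays (horizontal axis, by group and replicate number), coloured by the log2 value minus that gene's mean over all arrays, with differences beyond 5 drawn in the end colours. Ccl17, Ccl22 and Xcl1 are red on the ATDC arrays, Ccl8 and Ccl12 on most ATM arrays, and Ccl11 on the PA arrays.

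The genes sit in clusters on the chromosomes: 12 of the 34 lie on chromosome 11 and 11 on chromosome 5. The windows before the start of 3 pairs of near neighbours are shown here, because Ccl8 and Ccl12 and also Ccl17 and Ccl22 differed in the same direction between dendritic cells and macrophages, while Cxcl1 and Cxcl2 differed in opposite directions between preadipocytes and macrophages of lean fat. Each run below is the 150 bases before an annotated start, on the plus strand of GRCm38.p6, from RefSeq. Capitals mark a TATAAA box in Ccl8 and Ccl12, and a match to the kappaB consensus, the binding motif of NF-kB, in Cxcl1 and Cxcl2. Ccl8 is at chr11:82115035-82115184, Ccl12 at chr11:82101695-82101844, Cxcl1 at chr5:90891095-90891244, Cxcl2 at chr5:90903749-90903898, Ccl17 at chr8:94810303-94810452 and Ccl22 at chr8:94745534-94745683. The Ccl17 window lies inside the annotated gene, which begins at base 94809380, before a later annotated start, and the other 5 windows end at the base before the gene.
Ccl8: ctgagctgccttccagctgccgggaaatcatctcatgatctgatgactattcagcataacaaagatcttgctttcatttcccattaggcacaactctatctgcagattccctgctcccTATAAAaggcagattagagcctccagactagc
Ccl12: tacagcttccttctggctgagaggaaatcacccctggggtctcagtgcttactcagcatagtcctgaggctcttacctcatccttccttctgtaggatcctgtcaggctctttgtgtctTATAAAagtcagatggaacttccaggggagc
Cxcl1: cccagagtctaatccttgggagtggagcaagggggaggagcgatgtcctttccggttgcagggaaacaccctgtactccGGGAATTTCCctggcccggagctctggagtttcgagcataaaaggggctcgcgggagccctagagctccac
Cxcl2: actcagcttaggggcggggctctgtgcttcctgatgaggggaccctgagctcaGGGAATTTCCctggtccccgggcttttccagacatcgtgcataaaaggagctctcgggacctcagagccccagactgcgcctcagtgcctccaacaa
Ccl17: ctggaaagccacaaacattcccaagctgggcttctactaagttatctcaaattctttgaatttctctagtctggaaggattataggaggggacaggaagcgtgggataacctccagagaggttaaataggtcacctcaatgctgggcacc
Ccl22: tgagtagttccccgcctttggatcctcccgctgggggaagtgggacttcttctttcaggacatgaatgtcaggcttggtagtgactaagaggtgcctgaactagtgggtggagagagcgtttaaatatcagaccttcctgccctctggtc

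Ccl8 and Ccl12 are next to each other in the gene order, and their TATA boxes begin at positions -32 and -31 from the start. Cxcl1 and Cxcl2 are also neighbours, and both hold the same letters GGGAATTTCC, at -71 and -97. The windows shown for Ccl17, within the gene, and for Ccl22 hold neither motif, and Cx3cl1 lies between these genes. Of the 34 members, 23 had a window, 26 windows in all, of which 8 held TATAAA on the gene's strand and 6 held the kappaB consensus on either strand. Over all 32851 windows of the same length these shares were 4.84% and 3.145%. The interferon-stimulated response element (GAAA, any 2 bases, GAAA), searched on both strands, was in 1.586% of all windows and in 0 of the 26. A motif match is a description of the letters, and binding was not measured.

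Preadipocytes and macrophages carried different sets of chemokine genes. In lean fat PA were higher in 3 members and lower in 11 than CD11c- ATM, so that 14 of 30 passed, against 23.4% of all tested genes. In obese fat they were higher in 4 and lower in 11, 15 of 30, against 20.7% of all tested genes. The median difference of the 30 members was -0.996 in ND and -0.62 in HFD, against -0.01 and -0.03 over all tested genes. The higher genes were Ccl11 and Cxcl14 in both diets, Cxcl1 in ND, and Cxcl12 and Ccl27a in HFD.

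Ccl11 encodes eotaxin, which attracts eosinophils through Ccr3. Its level was 11.53, 11.44 and 11.53 on the ND PA arrays and 7.77 and 7.31 on ND CD11c- ATM. On HFD PA it was 10.89, 11.29 and 10.72 and on HFD CD11c- ATM 7.74, 7.28 and 9.03. Every PA array lay above every macrophage array of the same diet, and the difference was 3.96 ± 0.45 in ND (adjusted p = 1.45e-06) and 2.95 ± 0.41 in HFD (adjusted p = 2.55e-05). Cxcl14, a chemokine of epithelial and connective tissue cells, was 8.72, 8.65 and 8.19 on ND PA against 4.55 and 4.77 on ND CD11c- ATM. The difference was 3.86 ± 0.81 (adjusted p = 0.00114), and in HFD 2.56 ± 0.72 (adjusted p = 0.0136). Cxcl12, the stromal ligand of Cxcr4, was 8.39 and 8.59 on ND CD11c- ATM and 6.53, 7.30 and 7.38 on HFD CD11c- ATM. On PA it was 8.87, 9.25 and 8.95 in ND and 9.27, 9.42 and 9.16 in HFD. PA lay above the macrophages in both diets, and the difference passed in HFD (2.21 ± 0.37, adjusted p = 0.000186) and not in ND (0.53 ± 0.42, adjusted p = 0.431). Cxcl1, a neutrophil attractant, was 6.17, 5.54 and 6.65 on ND PA against 3.09 and 3.86 on ND CD11c- ATM (2.65 ± 0.80, adjusted p = 0.0197). In HFD it was 5.40, 5.44 and 6.27 on PA and 6.18, 4.96 and 5.81 on CD11c- ATM, which overlapped (0.05 ± 0.72, adjusted p = 0.976). Ccl27a, a ligand of Ccr10 known from skin, was 4.80 to 5.04 on the 3 HFD PA arrays and 3.92, 2.91 and 3.32 on HFD CD11c- ATM, without overlap (1.56 ± 0.43, adjusted p = 0.0111). With the mean of its 2 probe sets in the fit, this call was lost (adjusted p = 0.052). Among 11 probe sets that list Ccl27 beside other symbols, the lowest group mean equalled that of Ccl27a in HFD PA (4.95) and HFD CD11c- ATM (3.38). The signal may therefore not be that of Ccl27a alone.

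The genes lower in PA included attractants of monocytes, T cells and neutrophils. Ccl24, another eotaxin, stood at 10.94 and 11.03 on ND CD11c- ATM and at 5.14, 3.61 and 3.06 on ND PA, a difference of -7.05 ± 0.62 (adjusted p = 1.05e-07). Ccl12, a mouse monocyte attractant that signals through Ccr2, differed by -6.29 ± 0.84 in ND (adjusted p = 9.32e-06) and -5.42 ± 0.75 in HFD (adjusted p = 2.80e-05). The groups did not overlap for either gene, and Ccl24 was lower in HFD PA as well. Ccl3, Ccl4, Ccl5, Ccl6, Ccl8, Ccl9, Cxcl2 and Cxcl16 were lower in PA in both diets, with differences from -6.16 (Ccl8 in ND) to -1.25 (Cxcl16 in HFD). Cxcl9 was lower in ND PA alone by the test (-2.83 ± 0.82, adjusted p = 0.0144) and Xcl1 in HFD PA alone (-2.28 ± 0.71, adjusted p = 0.0266), and the interaction of these contrasts with diet passed for neither (adjusted p = 0.482 for Cxcl9). Without ND PA replicate 1 the ND count was 18 of 30: Ccl2, Ccl7 and Ccl17 were then lower and Ccl27a higher in ND PA. That array held the highest ND PA values of Ccl2, Ccl7 and Ccl17 and the lowest of Ccl27a. Without ND PA replicate 3 it was 11. When the 5 ND arrays were left out in turn, Cxcl1 and Ccl5 were each lost in 3 cases and Cxcl9 in 2. Over the 6 HFD arrays Xcl1 was lost in 4 cases, Cxcl14 in 2, and Ccl27a, Ccl5 and Ccl9 in 1 each.

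Dendritic cells were higher in Ccl17, Ccl22 and Xcl1 and lower in Ccl8 and Ccl12 than the macrophages compared. These were CD11c- ATM in lean fat and CD11c+ ATM in obese fat, and HFD ATDC were not tested against HFD CD11c- ATM. Xcl1 was not low in all macrophages: on WL CD11c- ATM it was 9.11 to 9.29, above the HFD ATDC array at 8.26. In lean fat 8 of 30 members differed between ATDC and CD11c- ATM, 4 in each direction, against 8.27% of all tested genes. In obese fat 5 of 30 differed between ATDC and CD11c+ ATM, against 4.16%. The median member difference was -0.46 in ND, against -0.01 over all tested genes, and -0.05 in HFD, against -0.05.

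Ccl17 and Ccl22 are ligands of Ccr4, which T helper 2 and regulatory T cells carry. Ccl17 was 9.91 and 9.98 on ND ATDC, 8.53, 8.21 and 8.43 on HFD ATDC, 4.57 and 4.07 on ND CD11c- ATM, and 4.97, 4.03 and 4.34 on HFD CD11c+ ATM. The ATDC arrays lay well above all ATM arrays, with differences of 5.62 ± 0.97 in ND (adjusted p = 0.00072) and 3.94 ± 0.79 in HFD (adjusted p = 0.00523). Ccl22 was 9.88 and 9.35 on ND ATDC and 10.02, 9.45 and 9.80 on HFD ATDC. It was 3.90 and 2.24 on ND CD11c- ATM and 6.78, 5.94 and 6.31 on HFD CD11c+ ATM. The differences were 6.55 ± 0.93 in ND (adjusted p = 0.000115) and 3.41 ± 0.76 in HFD (adjusted p = 0.012), and here too no arrays overlapped. The gene between them on the chromosome, Cx3cl1, a membrane-bound chemokine, was 3.22 and 2.78 on ND ATDC and 3.84, 2.81 and 3.76 on HFD ATDC, near the array medians of 2.96 to 3.15.

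Xcl1 encodes lymphotactin, which NK cells and CD8 T cells make and which attracts the dendritic cells that carry Xcr1. It was 10.35 and 10.34 on ND ATDC and 10.63, 8.26 and 9.62 on HFD ATDC, against 4.76 and 6.69 on ND CD11c- ATM and 7.17, 5.73 and 5.72 on HFD CD11c+ ATM. No ATDC array overlapped with those ATM arrays, and the differences were 4.62 ± 0.88 in ND (adjusted p = 0.00173) and 3.30 ± 0.71 in HFD (adjusted p = 0.0097). Beside it, the median of 4 NK cell markers was 7.16 on both ND ATDC arrays and 6.39, 4.55 and 5.02 on HFD ATDC, against 3.68 and 3.70 on ND CD11c- ATM and 3.57 to 3.90 on HFD CD11c+ ATM, and all 4 lay above the array median on every ATDC array. The median of 4 T cell markers was 6.88 and 7.85 on ND ATDC against 4.34 and 5.83 on ND CD11c- ATM, with 2 of 4 higher by the test. In HFD it was 6.96, 5.52 and 5.64 on ATDC and 5.57, 4.85 and 3.98 on CD11c+ ATM, with 1 of 4 higher. The HFD ATDC array with the highest Xcl1 value also had the highest NK cell and T cell lists. Their part in the Xcl1 result was not tested.

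Ccl12 and Ccl8 ran the other way, while the monocyte attractants Ccl2 and Ccl7 passed in neither diet. Ccl12 was 9.25 and 9.62 on ND CD11c- ATM and 1.79 and 3.00 on ND ATDC. No ND ATDC array was above its own median, so the difference was at least 6.31 (fitted -7.04 ± 0.92, adjusted p = 4.57e-05). In HFD it was 7.87, 8.57 and 6.25 on CD11c+ ATM and 4.50, 5.11 and 2.27 on ATDC (-3.61 ± 0.75, adjusted p = 0.00733). Its neighbour Ccl8, which in mice signals through Ccr8, was 10.75 and 10.20 on ND CD11c- ATM and 3.60 and 5.40 on ND ATDC (-5.98 ± 0.85, adjusted p = 0.000106). In HFD Ccl8 was 9.72, 10.52 and 8.40 on CD11c+ ATM and 6.95, 6.95 and 6.12 on ATDC (-2.87 ± 0.69, adjusted p = 0.0191). In these groups neither gene overlapped between the cell types. In lean fat Cxcl12 was lower in ATDC too (-2.98 ± 0.46, adjusted p = 0.000243). Cxcl13, the B cell attractant, was 3.61 and 5.96 on ND ATDC and 8.37 and 7.68 on ND CD11c- ATM (-3.24 ± 0.88, adjusted p = 0.025). Ccl4 was higher in ATDC, at 7.13 and 7.54 against 5.57 and 5.84 (1.63 ± 0.40, adjusted p = 0.0128). When the 4 ND arrays were left out in turn, Cxcl13 was lost in 3 cases and Ccl4 in 2, while the other calls were kept. Over all 4 cases, lost or kept, the Cxcl13 difference ran from -4.41 to -2.07. In HFD, Ccl8 was lost in 4 of 6 cases and Ccl22 and Xcl1 in 2 each. The HFD count was 2 without HFD ATDC replicate 1 and 3 without HFD CD11c+ ATM replicate 2, and Ccl12 and Ccl17 passed without any 1 array.

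**Figure D2:**
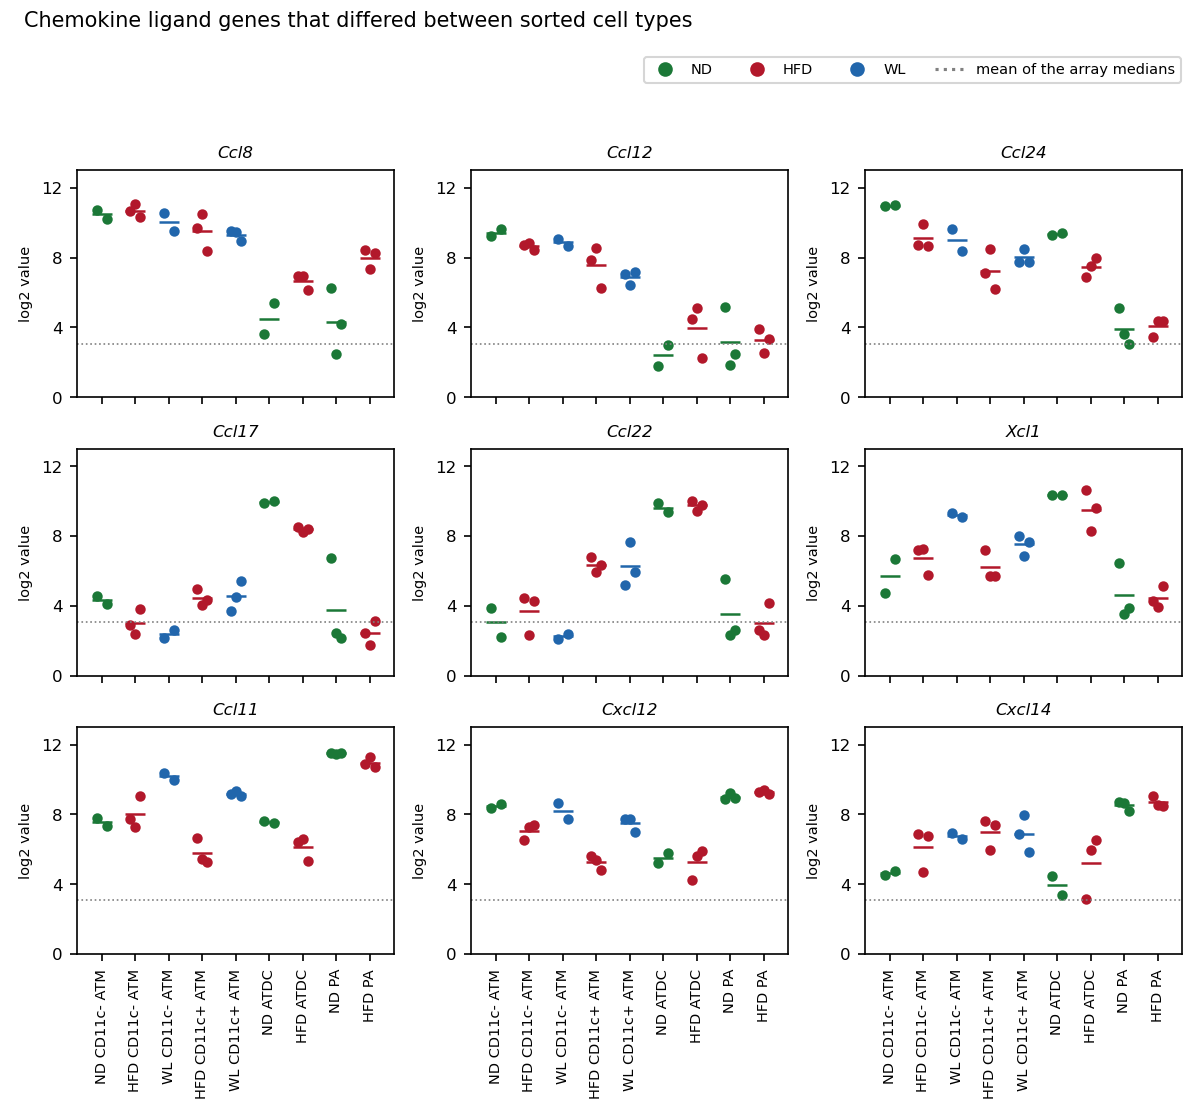
Log2 values (vertical axes) of 9 chemokine ligand genes on each array by group (horizontal axes), with bars at the group means and a dotted line at the mean of the array medians. Every ATDC array lies above all other arrays for Ccl17 and Ccl22, every PA array for Ccl11, Cxcl12 and Cxcl14, and every ATM array for Ccl12.

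CD11c, the integrin used for the sort, marks the macrophages that gather in obese fat. Between HFD CD11c+ and CD11c- ATM no member passed the threshold, against 0.00645% of all tested genes, and 6 of 30 had an unadjusted p under 0.05, against 6.43% of all tested genes. Ccl11 was 6.65, 5.45 and 5.24 on HFD CD11c+ ATM against 7.74, 7.28 and 9.03 on HFD CD11c- ATM (-2.24 ± 0.41, adjusted p = 0.188). Cxcl12 was 5.59, 5.38 and 4.81 against 6.53, 7.30 and 7.38 (-1.81 ± 0.37, adjusted p = 0.261). Ccl22 was 6.78, 5.94 and 6.31 against 4.43, 2.35 and 4.30 (2.65 ± 0.76, adjusted p = 0.426). For these 3 genes the groups did not overlap, as for 8 of the 30 members and 17.7% of all tested genes. The preadipocyte marker list was 7.50, 6.63 and 6.26 on the CD11c+ arrays and 8.11, 7.65 and 9.69 on the CD11c- arrays, and its part in the Ccl11 and Cxcl12 values was not tested. Without HFD CD11c- ATM replicate 2, Ccl11 passed (-2.60, adjusted p = 0.0413).

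After weight loss, 1 member differed between CD11c+ and CD11c- ATM, against 1.34% of all tested genes. Ccl22 was 5.21, 7.65 and 5.92 on WL CD11c+ ATM and 2.12 and 2.37 on WL CD11c- ATM. No WL CD11c- array was above its median, so Ccl22 was at least 3.14 log2 units higher in the CD11c+ cells (fitted 4.02 ± 0.85, adjusted p = 0.024). The call was lost without WL CD11c+ ATM replicate 2 or either WL CD11c- array, leaving 0 members. Dendritic cell markers were 3.67 to 3.97 on WL CD11c+ ATM and 3.88 to 4.07 on WL CD11c- ATM. In HFD that list was 4.59, 4.38 and 3.90 on CD11c+ ATM and 3.64, 4.12 and 3.44 on CD11c- ATM. Its part in the Ccl22 values was not tested in either diet.

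The diet comparisons gave no calls in the leukocytes in the fit over all arrays. In CD11c- ATM none of the 30 members passed the threshold between HFD and ND, against 0.613% of all tested genes, and 4 had an unadjusted p under 0.05, against 8.6%. Ccl4, macrophage inflammatory protein 1 beta, was 5.57 and 5.84 on ND and 7.92, 6.57 and 7.05 on HFD arrays (1.47 ± 0.36, adjusted p = 0.0831). It passed without HFD CD11c- ATM replicate 2 (1.78, adjusted p = 0.0238). Cxcl1 was 3.09 and 3.86 on ND and 6.18, 4.96 and 5.81 on HFD arrays (2.18 ± 0.80, adjusted p = 0.348). Ccl24 was 10.94 and 11.03 against 8.74, 9.92 and 8.66 (-1.88 ± 0.62, adjusted p = 0.25), and Cxcl12 differed by -1.42 ± 0.42 (adjusted p = 0.171). For each of these 4 genes the diets did not overlap, as for 9 of the 30 members and 27.1% of all tested genes.

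In ATDC none passed either, against 0.258% of all tested genes, and 6 had an unadjusted p under 0.05, against 8.62%. Ccl8 was 3.60 and 5.40 on ND ATDC and 6.95, 6.95 and 6.12 on HFD ATDC (2.18 ± 0.77, adjusted p = 0.351). Ccl7, the relative of Ccl2, was 8.13 and 8.31 on ND ATDC and 5.60, 7.14 and 5.94 on HFD ATDC (-1.99 ± 0.64, adjusted p = 0.274). Ccl24 differed by -1.88 ± 0.62 (adjusted p = 0.298), Ccl11 by -1.46 ± 0.45 (adjusted p = 0.246) and Cxcl16 by 0.72 ± 0.28 (adjusted p = 0.404). Ccl20 was 3.39 and 3.36 on ND ATDC, and no HFD ATDC array was above its own median, so it was lower in HFD by at least 0.29 log2 units (adjusted p = 0.179). The ND and HFD arrays did not overlap for these 6 genes, as for 9 of the 30 members and 22.1% of all tested genes. On data simulated on this design, 18% of genes changed by 1 log2 unit and 95% of those changed by 3 units were called in this comparison. The simulation gave each gene 1 spread over all groups and a set number of changed genes. The shares may therefore be too high for the real data.

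Ccl2, the monocyte attractant best known from obese fat, did not pass in any comparison. Its level was 10.55 and 10.27 on ND CD11c- ATM and 10.21, 10.23 and 10.05 on HFD CD11c- ATM. It was 9.93 and 9.95 on ND ATDC and 8.83, 10.02 and 10.03 on HFD ATDC. It was 10.25, 7.88 and 9.39 on ND PA and 9.18, 10.13 and 9.64 on HFD PA. The diets overlapped in ATDC and PA, and in CD11c- ATM both ND arrays lay above the 3 HFD arrays. The 95% interval of HFD minus ND ran from -1.24 to 0.75 in CD11c- ATM, from -1.31 to 0.68 in ATDC and from -0.41 to 1.36 in PA. Ccl7, its neighbour on the chromosome, varied more, from 5.60 on an HFD ATDC array to 11.22 on a WL CD11c- ATM array.

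In preadipocytes 4 members rose on the high-fat diet and none fell, 4 of 30 against 1.69% of all tested genes that rose and 2.59% that changed in either direction. They were Ccl8, Ccl9, Ccl6 and Cxcl9. The median member difference was 0.18, against -0.02 over all tested genes, and the diets did not overlap for 10 members and 19.8% of all tested genes.

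Ccl8 was 6.24, 2.49 and 4.22 on ND PA and 8.43, 7.33 and 8.25 on HFD PA, with no overlap, and rose by 3.69 ± 0.69 (adjusted p = 0.00468). Ccl9 and Ccl6 encode rodent chemokines of myeloid cells that act through Ccr1. Ccl9 was 7.90, 5.38 and 4.45 on ND PA and 8.74, 7.95 and 9.62 on HFD PA (2.86 ± 0.54, adjusted p = 0.00549). Ccl6 was 7.29, 4.93 and 4.50 on ND PA and 7.44, 6.71 and 8.56 on HFD PA (2.00 ± 0.50, adjusted p = 0.0345), and here ND PA replicate 1 lay above 1 HFD array. Cxcl9, the interferon-gamma-induced T cell attractant, was 6.29, 5.23 and 3.60 on ND PA and 8.04, 7.52 and 7.83 on HFD PA, with no overlap (2.76 ± 0.73, adjusted p = 0.0489). Its relatives Cxcl10 (0.23 ± 0.80, adjusted p = 0.974) and Cxcl11 did not pass. Cxcl2 was 4.49, 3.07 and 4.11 on ND PA and 5.12, 5.13 and 7.08 on HFD PA, also without overlap, and just missed the threshold (1.88 ± 0.50, adjusted p = 0.0512).

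Macrophage genes moved with these members. The median of the 9 macrophage markers was 5.60, 4.96 and 4.20 on ND PA and 7.07, 6.21 and 8.12 on HFD PA, and 7 of the 9 rose, among them Cd68 (2.94 ± 0.49, adjusted p = 0.00173) and Adgre1 (2.98 ± 0.54, adjusted p = 0.00399). Of the 9, 8 or 9 lay above the median on each PA array. On ATM arrays the same list was 9.62 to 10.65, and Ccl9 there was 10.19 to 10.80 and Ccl6 9.71 to 10.43. Pf4, a platelet and macrophage chemokine outside the naming rule, rose as well (2.36 ± 0.49, adjusted p = 0.0102), while Ccl24 and Ccl12, both higher in macrophages than in PA, differed between the PA diets by 0.13 ± 0.55 and 0.12 ± 0.75 (adjusted p = 0.977 and 0.984). The part of macrophage RNA in these rises was not tested. Of the 4 calls, Ccl8 passed without any 1 array, and when the 6 PA arrays were left out in turn Ccl9 was lost in 1 case, Ccl6 in 4 and Cxcl9 in 5. The count was 6 without ND PA replicate 1, adding Cxcl2 and Ccl5, 1 without HFD PA replicate 3, and 2 without ND PA replicate 2 or 3.

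Whether the diet difference itself was unlike that in CD11c- ATM was tested as an interaction, in which none of the 30 passed against 0.277% of all tested genes, with 8 at an unadjusted p under 0.05, against 9.04%. The interaction estimate was 3.47 ± 1.04 for Ccl8 (adjusted p = 0.207) and 2.90 ± 0.82 for Ccl9 (adjusted p = 0.181). Without ND PA replicate 1 it passed for Ccl9 (3.90, adjusted p = 0.00038), Ccl6 (2.83, adjusted p = 0.00901) and Ccl8 (4.43, adjusted p = 0.0163). That array held the highest ND PA values of these genes, so leaving it out had to raise the estimates. Without any other single array of these groups none passed. Between ATDC and CD11c- ATM none passed, against 0.0581% of all tested genes, with 2 at an unadjusted p under 0.05, against 7.25%.

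**Figure D3:**
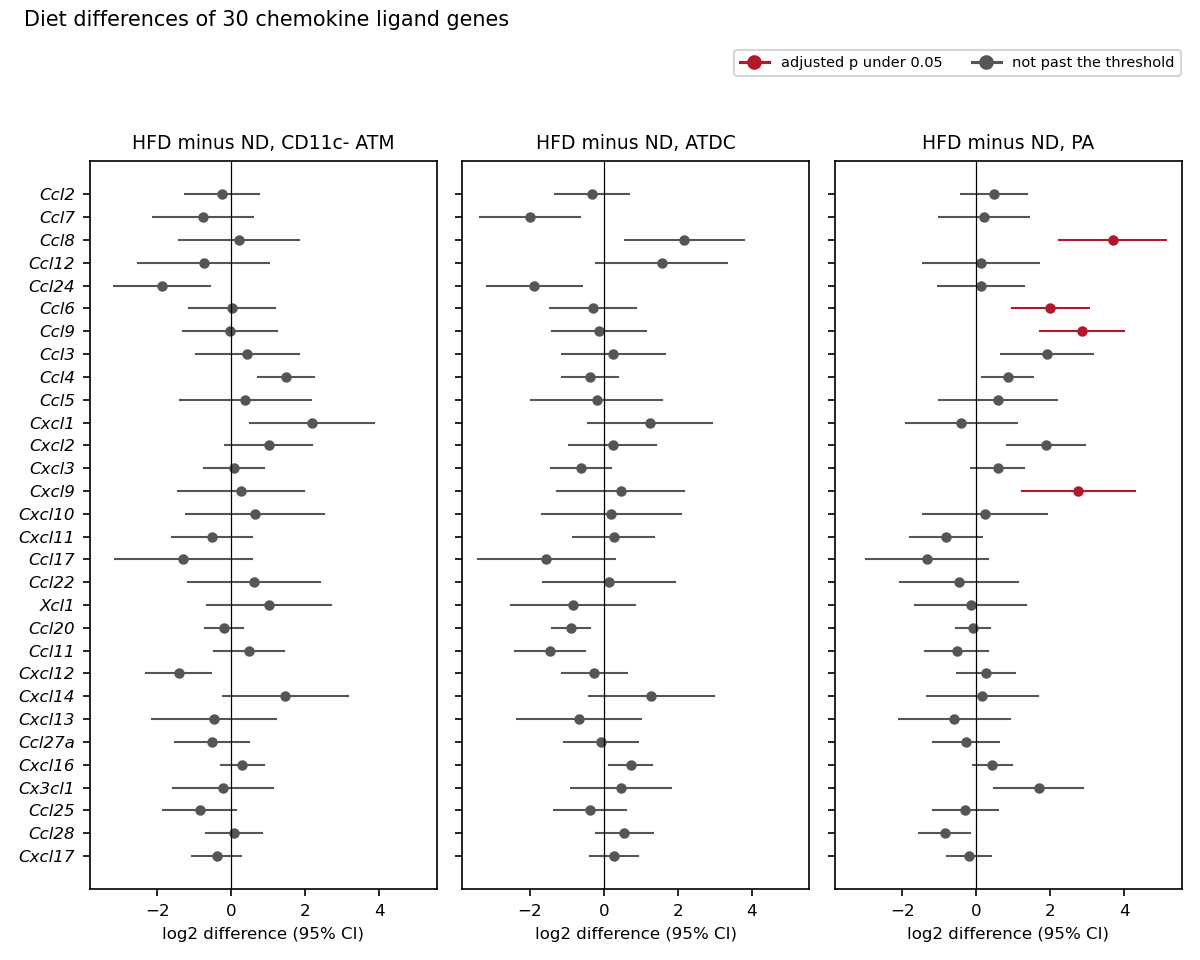
HFD minus ND log2 difference (horizontal axes, with the 95% interval of the fit) of the 30 tested members (vertical axis) in CD11c- ATM, ATDC and PA. Red marks an adjusted p under 0.05, which only Ccl8, Ccl6, Ccl9 and Cxcl9 in PA reach, all to the right of 0.

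**Figure D4:**
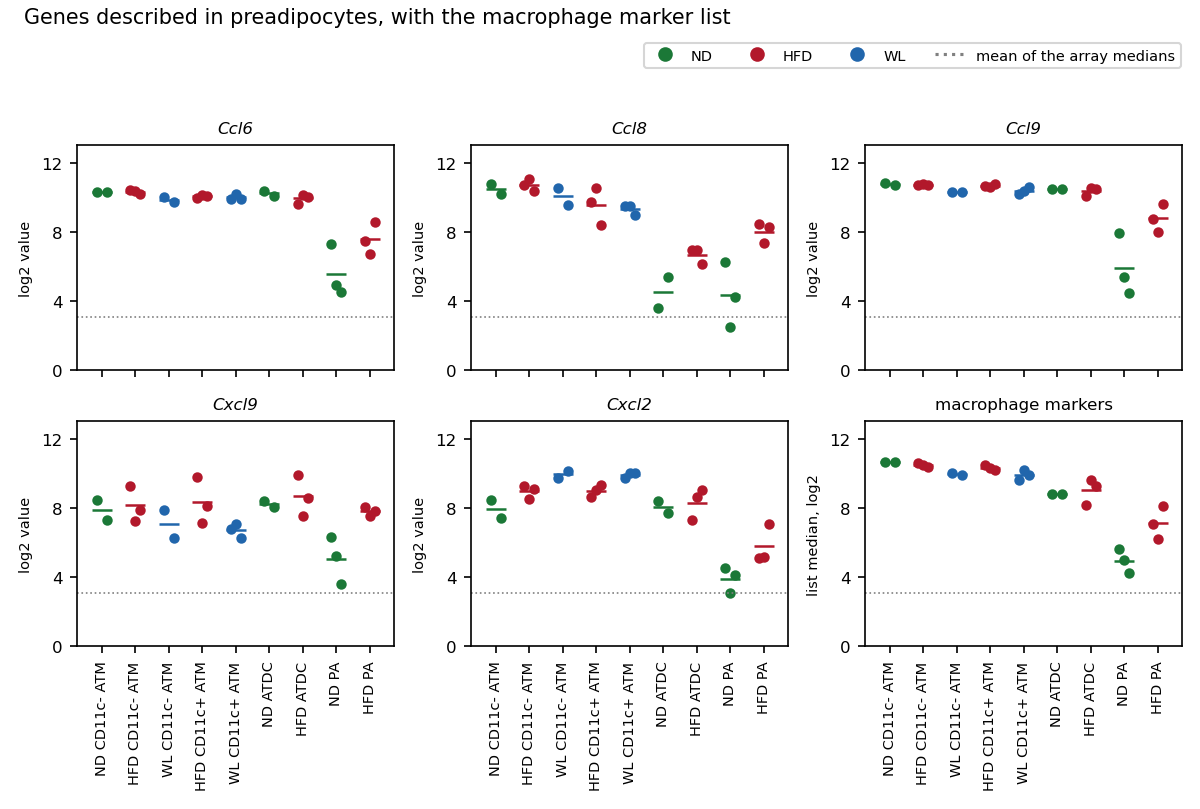
Log2 values (vertical axes) of Ccl6, Ccl8, Ccl9, Cxcl9 and Cxcl2, and the median of the 9 macrophage markers, on each array by group (horizontal axes), with bars at the group means and a dotted line at the mean of the array medians. Within PA, the genes and the marker list are both higher on HFD than on ND arrays, with 1 overlapping array for Ccl6.

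After weight loss Ccl11 was higher in both macrophage populations by the test. Ccl4 passed in CD11c- macrophages and not in CD11c+ macrophages, where the WL arrays lay above the HFD arrays too. Compared with HFD, WL CD11c+ ATM were higher in 2 of 30 members and lower in none, against 1.33% of all tested genes. WL CD11c- ATM were higher in 2 and lower in 1 than HFD CD11c- ATM, against 2.96%, and higher in 4 and lower in none than ND CD11c- ATM, against 6.18%. The median member difference was 0.46, 0.17 and -0.35 in these comparisons, against -0.10, -0.09 and -0.08 over all tested genes.

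Ccl11 was 9.16, 9.34 and 9.04 on WL CD11c+ ATM and 6.65, 5.45 and 5.24 on HFD CD11c+ ATM. On CD11c- ATM it was 10.39 and 9.95 in WL, 7.74, 7.28 and 9.03 in HFD and 7.77 and 7.31 in ND. The WL arrays lay above all HFD and ND arrays of the same cell type. The differences were 3.40 ± 0.41 in CD11c+ ATM (adjusted p = 0.000627) and, in CD11c- ATM, 2.15 ± 0.45 against HFD (adjusted p = 0.0135) and 2.63 ± 0.50 against ND (adjusted p = 0.00347). Cxcl12 was 7.71, 7.75 and 7.01 on WL CD11c+ ATM and 5.59, 5.38 and 4.81 on HFD CD11c+ ATM, again without overlap (2.23 ± 0.37, adjusted p = 0.00841). On WL CD11c- ATM Cxcl12 was 8.66 and 7.73.

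Ccl11 and Cxcl12 were also high in preadipocytes, and preadipocyte and fibroblast markers were higher in the WL macrophage samples. The median of that list of 8 was 8.36, 8.91 and 8.21 on WL CD11c+ ATM against 7.50, 6.63 and 6.26 on HFD CD11c+ ATM, with 2 of 8 past the threshold. On CD11c- ATM it was 9.45 and 9.35 in WL, 8.11, 7.65 and 9.69 in HFD and 6.22 and 5.44 in ND, with 8 of 8 past the threshold between WL and ND and 0 of 8 between WL and HFD. At least 7 of the 8 lay above the median on every ATM array. On CD11c- ATM Cxcl12 was 8.39 to 8.59 in ND, where the list was lowest, and 6.53 to 7.38 in HFD. The part of the preadipocyte markers in the Ccl11 and Cxcl12 results was not tested.

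Ccl4 was 9.04 and 8.26 on WL CD11c- ATM, 7.92, 6.57 and 7.05 on HFD and 5.57 and 5.84 on ND CD11c- ATM. The 3 diets did not overlap, and WL was higher than ND by 2.94 ± 0.40 (adjusted p = 0.000229) and than HFD by 1.47 ± 0.36 (adjusted p = 0.0335). On CD11c+ ATM Ccl4 was 7.89 to 8.28 in WL and 7.07 to 7.36 in HFD, and did not pass. Its neighbour Ccl3 was 10.18 and 10.08 on WL CD11c- ATM and 8.92 and 7.51 on ND CD11c- ATM and did not pass (adjusted p = 0.138). Cxcl1, a neutrophil attractant, was 8.07 and 8.21 on WL and 3.09 and 3.86 on ND CD11c- ATM, higher by 4.67 ± 0.88 (adjusted p = 0.00344). On HFD CD11c- ATM it was 4.96 to 6.18, and the difference between WL and HFD did not pass. On CD11c+ ATM Cxcl1 was 7.05 to 8.13 in WL and 5.49 to 6.80 in HFD, and did not pass. Its neighbour Cxcl2, which holds the same kappaB letters, was 9.72 and 10.14 on WL and 8.45 and 7.42 on ND CD11c- ATM and missed the threshold (1.99 ± 0.62, adjusted p = 0.0618). Neutrophil markers, 4 genes, had a median of 6.23 and 5.16 on WL CD11c- ATM against 3.87 and 4.52 on ND CD11c- ATM, with 3 of the 4 above the array median on each of these arrays. Their part in the Cxcl1 result was not tested. The median of 10 genes that respond to tissue dissociation was 9.78 and 9.52 on WL CD11c- ATM, 9.07, 8.85 and 8.79 on HFD and 9.10 and 9.09 on ND CD11c- ATM, so WL lay above both other diets. Of these 10, 1 was higher between WL and HFD by the test, and 1 was lower between WL and ND. Mast cell markers, 4 genes, were 7.39 and 8.74 on WL CD11c- ATM against 2.74 and 3.02 on ND CD11c- ATM. The part of the dissociation and mast cell genes in the Ccl4 and Cxcl1 results was not tested.

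Xcl1 was 9.29 and 9.11 on WL CD11c- ATM and 4.76 and 6.69 on ND CD11c- ATM, without overlap (3.47 ± 0.88, adjusted p = 0.0215). On HFD CD11c- ATM it was 5.75 to 7.27, and the difference between WL and HFD did not pass. NK cell markers were 5.20 and 4.96 on the WL arrays and 3.68 and 3.70 on the ND arrays, and mast cell markers, 4 genes, were 7.39 and 8.74 against 2.74 and 3.02, with 4 of 4 above the median on both WL arrays and 0 or 1 on the ND arrays. Their part in the Xcl1 result was not tested. The Xcl1 call was lost in 3 of 4 cases when 1 array was left out, each array but ND CD11c- ATM replicate 2. Over all 4 cases, lost or kept, the difference ran from 2.51 to 4.44. Cxcl16, a membrane-bound ligand of Cxcr6 that also binds oxidised lipoproteins, was the single member called lower after weight loss by the test. It was 9.05, 8.75 and 8.91 on HFD and 8.03 and 7.58 on WL CD11c- ATM (-1.10 ± 0.28, adjusted p = 0.0366). This call was lost without any 1 of the 5 arrays, with adjusted p up to 0.19. On CD11c+ ATM it was 9.16, 8.92 and 8.85 in HFD and 8.05, 8.18 and 7.86 in WL, also without overlap (-0.94 ± 0.25, adjusted p = 0.0629), and missed the threshold.

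Ccl11 between WL and HFD CD11c+ ATM, and Ccl11, Ccl4 and Cxcl1 between WL and ND CD11c- ATM, passed without any 1 array. Cxcl12 was lost without HFD CD11c+ ATM replicate 3, and without WL CD11c+ ATM replicate 1 the count between WL and HFD CD11c+ ATM was still 2. Between WL and HFD CD11c- ATM, Ccl11 and Ccl4 were each lost in 3 of 5 cases. Of the 3 calls between WL and HFD CD11c- ATM 0 were left without HFD CD11c- ATM replicate 2 or WL CD11c- ATM replicate 1 and 1 without HFD CD11c- ATM replicate 1 or 3. Whether weight loss acted differently in CD11c+ and CD11c- ATM was tested as an interaction, in which none of the 30 passed, against 0.161% of all tested genes, with 1 at an unadjusted p under 0.05, against 6.74%.

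**Figure D5:**
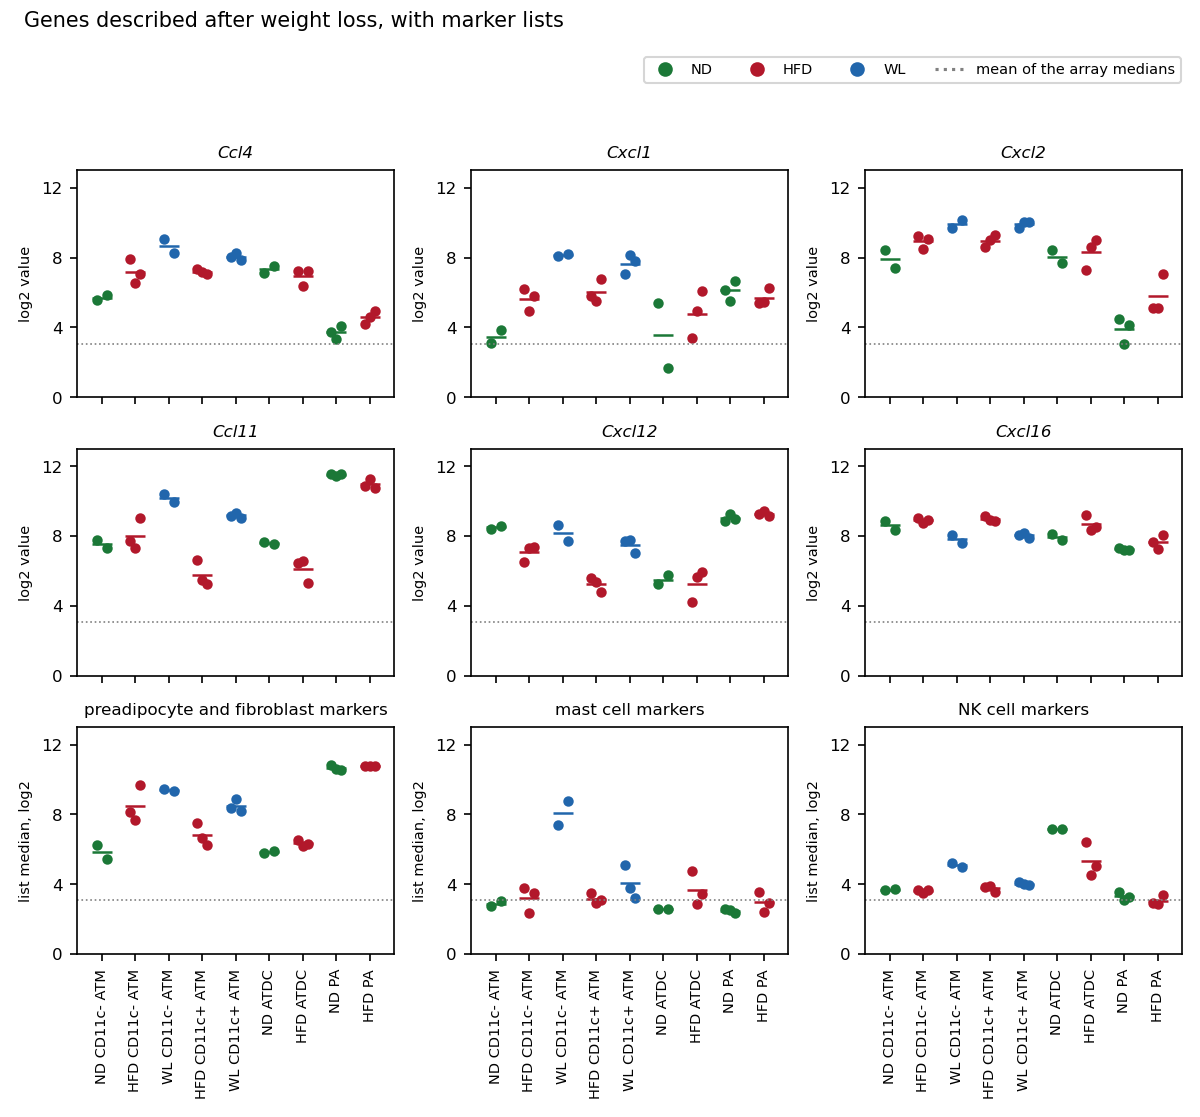
Log2 values (vertical axes) of Ccl4, Cxcl1, Cxcl2, Ccl11, Cxcl12 and Cxcl16, and the medians of 3 marker lists, on each array by group (horizontal axes), with bars at the group means and a dotted line at the mean of the array medians. On ATM arrays, blue WL points lie above red HFD points for Ccl11 and below them for Cxcl16, and the preadipocyte list is 8.21 to 9.45 on WL arrays, with 1 HFD array at 9.69.

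Some receptors on which these ligands act differed between the cell types. Of 18 typical chemokine receptor genes 17 were named on the array and 14 were tested. Between ATDC and the ATM compared, 5 of 14 passed in ND and 4 of 14 in HFD, against 8.27% and 4.16% of all tested genes. In lean fat 5 were higher in ATDC than in CD11c- ATM and none lower: Xcr1, the receptor of Xcl1 (4.61 ± 0.56, adjusted p = 1.99e-05), Ccr7, which guides dendritic cells to lymph nodes (3.80 ± 0.56, adjusted p = 0.000164), Cxcr6, Ccr9 and Cxcr3. In obese fat Xcr1 (4.43 ± 0.46), Ccr7 (4.10 ± 0.46) and Cxcr3 (1.49 ± 0.24) were higher in ATDC than in CD11c+ ATM and Ccr3, the eotaxin receptor, was lower (-2.34 ± 0.57, adjusted p = 0.0222). Ccr7 and Xcr1 are also among the dendritic cell markers used above. PA were lower than CD11c- ATM in Ccr1, Ccr2, Cxcr3, Cxcr4 and Cx3cr1 in both diets. These were 5 of 14, against 23.4% of all tested genes in ND and 20.7% in HFD. Ccr1 was lower by the most in ND (-5.53 ± 0.50, adjusted p = 1.26e-07). No receptor passed in a diet comparison or between WL and HFD by limma, with 0 to 4 of the 14 at an unadjusted p under 0.05 in each, against 8.6% to 20.1% of all tested genes. Cxcr6, the receptor of Cxcl16, was higher in WL than in ND CD11c- ATM (2.07 ± 0.60, adjusted p = 0.0434). It was 1 of 14, against 6.18% of all tested genes.

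The 5 atypical receptors bind chemokines without the usual signalling, and several take them up from the surroundings. In lean fat 4 of them were higher in PA than in CD11c- ATM: Ackr1 (3.15 ± 0.79, adjusted p = 0.00544), Ackr3, which binds Cxcl12 (2.68 ± 0.47, adjusted p = 0.000209), Ackr2 (2.62 ± 0.43, adjusted p = 9.6e-05) and Ackr4 (1.68 ± 0.33, adjusted p = 0.000592). Ccrl2 was lower (-2.74 ± 0.73, adjusted p = 0.00845), so 5 of 5 passed, against 23.4% of all tested genes. In obese fat Ackr2, Ackr3 and Ackr4 were higher in PA, 3 of 5 against 20.7%. Ccrl2 was higher in WL than in ND CD11c- ATM (3.24 ± 0.80, adjusted p = 0.0191), 1 of 5 against 6.18%.

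Proteases that trim chemokines differed between the same groups. Of 10 such genes 9 were tested, and Dpp4, which removes the first residues of Cxcl12 and other chemokines, was higher in ATDC than in CD11c- ATM of ND mice (4.13 ± 0.66, adjusted p = 0.000362) and than in CD11c+ ATM of HFD mice (3.97 ± 0.54, adjusted p = 0.000156). Dpp4 is also on the dendritic cell list. Between HFD and ND CD11c- ATM, where no ligand passed, 4 of the 9 did, against 0.613% of all tested genes. Mmp2, Mmp12 and Mmp14 rose and Mmp9 fell by 4.80 ± 0.35 (adjusted p = 2.05e-07). Between WL and ND CD11c- ATM 5 of the 9 rose and 1 fell, against 6.18% of all tested genes. Among those that rose were Mmp12 (5.66 ± 0.55, adjusted p = 3.38e-06), Ctsg (4.18 ± 0.34, adjusted p = 6.18e-07) and the mast cell protease Cma1 (5.97 ± 1.14, adjusted p = 0.00388). Of 13 tested NF-kB signalling genes none passed by limma between HFD and ND in CD11c- ATM, ATDC or PA, with 1, 0 and 4 at an unadjusted p under 0.05, against 8.6%, 8.62% and 11.6% of all tested genes. Of 11 tested interferon signalling genes none passed in these comparisons either, with 2, 0 and 1 at an unadjusted p under 0.05.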

How the data were processed

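RNA from 24 sorted samples was hybridised to single-colour arrays, 1 per sample. The deposited series table holds normalized log2 values for 41345 probe sets. RMA, oligo and limma are named in the submitters' processing notes, without versions. RMA quantile-normalizes arrays, so a change common to every gene of 1 sample is lost. The deposited values ran from -0.02 to 13.1, and array medians from 2.96 to 3.15. Of the probe sets, 23521 carried 1 symbol in the platform annotation, 1814 several and 16010 none here. Scanner files were not used here, so the array median served as the floor: where no array of a group exceeded it, a named difference is given as a least difference. Signal from near-identical genes could not be separated.

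Groups and replicate numbers came from the sample titles. limma 3.58.1 in R 4.3.3 fitted 1 mean per group (lmFit, eBayes, 15 residual degrees of freedom), two-sided, with Benjamini-Hochberg adjustment over 15496 genes in each of 12 comparisons and 3 interactions. Intervals are at 95%. Every member could be named. Members past the threshold that the text describes are given array by array in at least 1 comparison, and the others by differences, counts or ranges. Of other gene lists, up to 4 genes past the threshold were named with their values. Members and lists were chosen with earlier results of these data known. The code was tested on simulated data: it called 9% to 32% of genes changed by 1 log2 unit and 90% to 98% of those changed by 3. These shares hold for the simulated spread and number of changed genes. The titles do not say whether same-numbered replicates are pairs, and the numbers were not used as pairs. Deviations of same-numbered replicates from their group means correlated at r from -0.13 to 0.25, which cannot show that they are unpaired. The number of arrays limits the precision.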

Additional observations from a re-analysis of the deposited data

Results flagged for a closer look

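Ccl28, a mucosal chemokine, had fitted diet differences of opposite sign in dendritic cells and preadipocytes, both against values at the floor. HFD minus ND was 0.55 in ATDC and -0.86 in PA, with no overlap between the diets in either cell type. No ND ATDC and no HFD PA array was above its own median, so the least differences are 0.035 and 0.064 log2 units, too small to set a direction. The difference between these 2 effects was not tested, and neither passed the threshold. Ccl28 lay above the array median on 5 of 24 arrays.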

How the results depend on the processing

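Of 56 calls of single members, 34 kept their side of the threshold whichever array of the compared groups was left out, and none changed direction under any alternative. With only the arrays compared in the fit, fewer samples estimated the spread: 0 members passed for HFD against ND PA, for WL against HFD in CD11c+ and in CD11c- ATM, and for WL CD11c+ against CD11c- ATM. With array weights 1 passed between diets in CD11c- ATM (Ccl4), 7 in PA, 2 between HFD CD11c+ and CD11c- ATM (Ccl11 and Cxcl12), 2 in the interaction of diet with PA (Ccl8 and Ccl9), and 0 in WL against HFD CD11c- ATM and in WL CD11c+ against CD11c- ATM, and the cause was not tested. The 3 arrays singled out for markers of other cells were left out in an alternative chosen after seeing the data. Then 6 passed between PA diets and 2 in the interaction of diet with PA. In WL CD11c+ against CD11c- ATM 2 passed (Ccl22 and Ccl17). ND PA replicate 1 held the highest ND PA values of Ccl6, Ccl8, Ccl9, Cxcl9, Cxcl2 and Ccl5. Leaving it out therefore had to widen these diet differences, and the added calls in PA are no separate support. Leaving out 1 array at a time gave 0 to 1 calls for diet in CD11c- ATM, 0 in ATDC, 1 to 6 in PA, 0 to 1 for HFD CD11c+ against CD11c- ATM, 1 to 3 and 0 to 2 for WL against HFD in CD11c+ and CD11c- ATM, 3 to 4 for WL against ND, 0 to 1 for WL CD11c+ against CD11c- ATM, 2 to 6 and 6 to 7 for ATDC in HFD and ND, 11 to 18 and 12 to 15 for PA against CD11c- ATM in ND and HFD, and 0 to 3 for the interaction of diet with PA. The other 2 interactions gave 0 each time. With the replicate number as a block, though the titles do not say that the numbers pair the samples, 6 members passed between PA diets and 5 between WL and ND CD11c- ATM. Where a group left 1 array, it was assumed to vary like the other groups.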

Other observations

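Probe sets annotated to several symbols, which name no single gene, also differed between the sorted cells. Over 13 of them that list Ccl19, a ligand of Ccr7, the median of the group means was 9.13 in ND PA and 8.89 in HFD PA, against 4.97, 5.65 and 7.64 in CD11c- ATM of ND, HFD and WL mice. Over 9 that list Ccl21, the other ligand of Ccr7, it was 5.09, 4.92 and 8.93 in those same groups, 4.75 and 7.70 in CD11c+ ATM of HFD and WL mice, and 6.54 and 6.27 in ND and HFD PA. These probe sets may share sequence with each other and were not tested.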
